A study of Mus musculus with 3 samples.

Results

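The genes described here encode the constitutive proteasome of the mouse lung: the subunits of its core and of its regulatory particle, the activators and the inhibitor that bind the core, and the chaperones that assemble it. Members were taken by name, as every symbol of the form Psm followed by a letter from a to g and a number, without pseudogenes and without Psmb8, Psmb9 and Psmb10, the subunits of the immunoproteasome. The names were found for 47 of 23183 genes, and 45 of them reached 1 FPKM (fragments mapped per kilobase of transcript, scaled to the depth of the library) in any library, as did 14145 of all genes. Both names below that floor belong to genes of other tissues: Psma8, a core subunit of the testis, reached 0.595 FPKM at most, and Psmb11, a catalytic subunit of the thymus, was listed at 0 in the control and PM10 libraries and at 0.014 FPKM in the OVA+PM10 library. The pattern of names also took Psmc3ip, a partner protein in meiotic recombination that is no part of the proteasome, so 44 of the 45 members encode proteasome proteins.

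All libraries came from total RNA of lungs of female BALB/c mice, given as 10 weeks old in one label and as 5 to 6 weeks old in the growth protocol, with 5 mice assigned to a group. The control library carries no agent in its label, and no vehicle is named for it. The PM10 library came from mice given a certified reference dust of the ERM-CZ120 type intranasally, 100 or 200 µg in 20 µL of saline on each of 4 occasions within 2 weeks, and which dose was sequenced is not stated. The OVA+PM10 library came from mice that received both this dust and ovalbumin (OVA), a model allergen: 20 µg with aluminium hydroxide by intraperitoneal injection, the last on day 14, and then 30 µL at 1 mg/mL into the nose on days 21, 22 and 23. No library of OVA alone was analysed here. Whether a library holds RNA of 1 mouse or of several pooled mice is not stated.

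The proteasome is the main protease of the cytosol and the nucleus and degrades proteins that carry ubiquitin chains. Its core is a barrel in which the outer rings of alpha subunits form the gate and the inner rings of beta subunits hold the active sites, and a regulatory particle on either end recognises the ubiquitin chain, unfolds the substrate with a ring of ATPases and removes the chain. Other caps can take the place of the regulatory particle, interferon gamma can replace the catalytic subunits by those of the immunoproteasome, and cells short of proteasome activity are known to raise the transcription of most subunit genes together.

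Each group has 1 library, so no difference below has a replicate check. A ratio compares libraries, not conditions, and no test or p-value was possible. The step that 1 read makes in the values gave about 19800000, 13100000 and 15200000 reads for the control, PM10 and OVA+PM10 libraries. Summed over all genes the values came to 546315, 1293180 and 855739 FPKM, while the median of the 14145 genes was 8.25, 7.45 and 7.94 FPKM. The 79 measured genes of the cytosolic ribosome alone took 85776, 459866 and 220972 FPKM of those sums. Rn45s, the precursor of ribosomal RNA, was listed at 8570 FPKM in the PM10 library and at 0 in both others. Of the lists of tissue markers, 12 of 12 lung epithelial genes were measured in every library and summed to 71584, 117987 and 96007 FPKM. The control library also held messages of muscle and squamous epithelium: 16 of 16 skeletal muscle genes summed to 5588 FPKM there against 42.5 in the PM10 and 58.9 in the OVA+PM10 library, and 15 of 16 squamous epithelial genes summed to 6391, 2.22 and 2.52 FPKM. In the PM10 library 3 of the muscle and 10 of the squamous genes were at 0, and in the OVA+PM10 library 4 and 6. Among them were the muscle myosin Myh4 and the fast troponin Tnnc2 in both, Acta1 in PM10, and Myh1 and Myh2 in OVA+PM10. The 11 measured cardiac genes summed to 773, 219 and 390 FPKM, the 12 macrophage genes to 3563, 5231 and 3788, and the 11 measured lymphocyte genes to 162, 317 and 302. The part of these differences in the results below was not tested, and in a bulk library fewer cells of a type and less RNA per cell cannot be told apart.

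Proteasome genes were among the more abundant messages of the lung in all 3 libraries. Their median level was 56.4 FPKM in the control, 105 in the PM10 and 74.3 in the OVA+PM10 library, at the percentiles 91.4, 92.9 and 92.6 of all genes. The summed level of the 45 members was 2996, 7041 and 4952 FPKM. As a share of all FPKM in the library this was 0.548%, 0.544% and 0.579%, so the libraries differed far less in the members' share than in their level. The order of the members by level was nearly the same in each library (Spearman's rho 0.969 between control and PM10, 0.977 between control and OVA+PM10 and 0.976 between PM10 and OVA+PM10, across 45 genes, which are not independent replicates). By group medians the core stood above the regulatory particle and the regulatory particle above the assembly chaperones, as the plot of members by role and library shows.

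**Figure D1:**
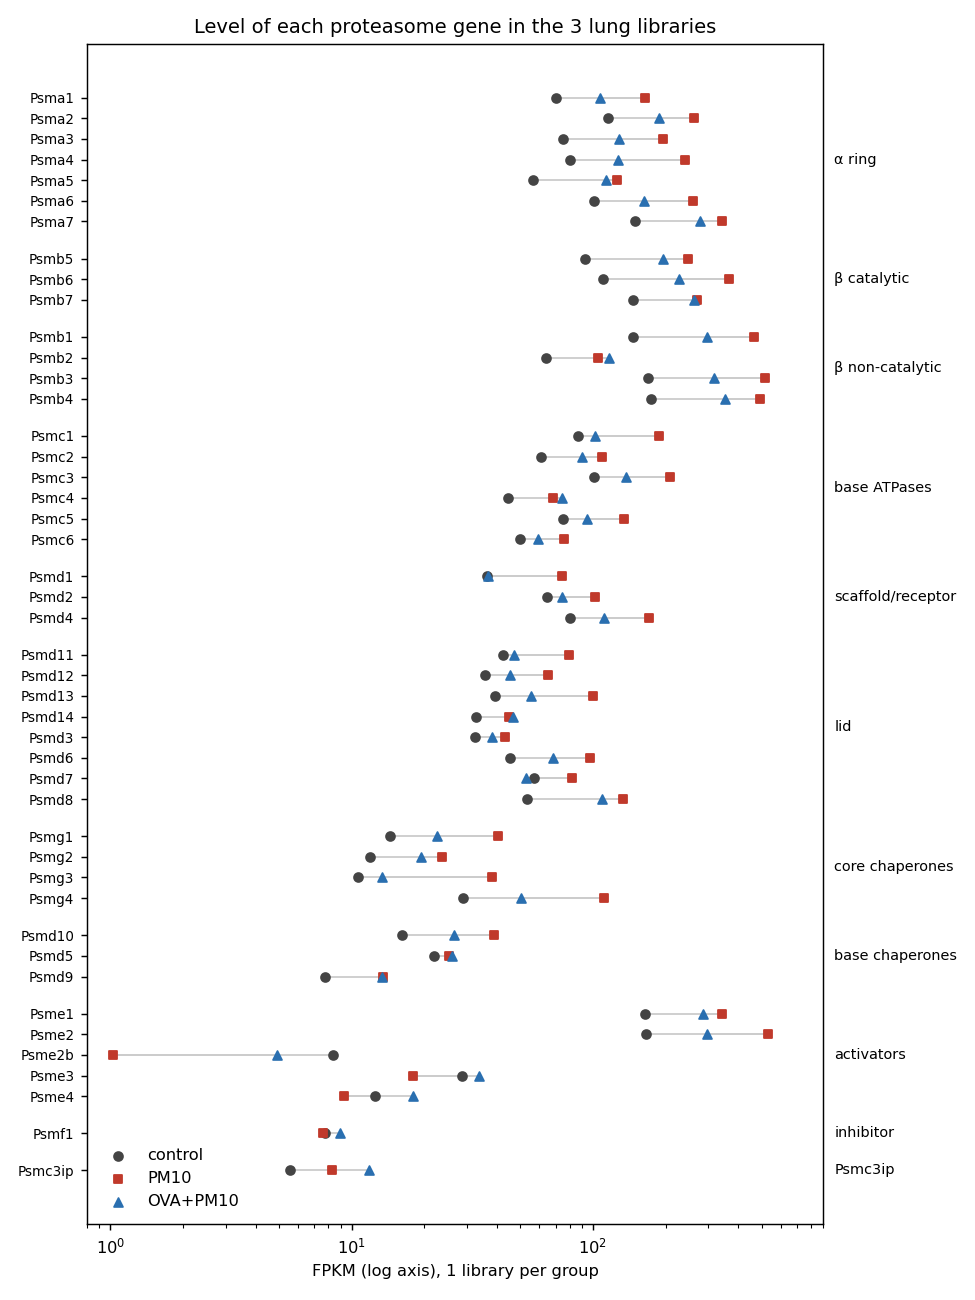
Level of each of the 45 members (FPKM, log axis) in the control, PM10 and OVA+PM10 lung libraries, 1 point per library, grouped by the role of the protein. The 14 core subunits lie between 56.4 and 174 FPKM in control, the 7 assembly chaperones between 7.78 and 29.0, and in 35 of 45 members the PM10 point is the highest and the control point the lowest, as compared on the deposited scale.

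The order of the 3 libraries was shared by most members. The level was highest in PM10, lower in OVA+PM10 and lowest in control for 35 of 45 members (77.8%), an order found in 23.0% of all genes. Psmb2, Psmc4, Psmd14, Psmd5 and Psmc3ip were highest in OVA+PM10 and lowest in control. The activators Psme3 and Psme4 and the inhibitor Psmf1 were highest in OVA+PM10 and lowest in PM10. Psmd7 was highest in PM10 and lowest in OVA+PM10, and Psme2b was highest in control and lowest in PM10. These orders compare the values as deposited, and those of single genes within a small distance of each other have no error to set them against.

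In the comparison of PM10 with control, 25 of 45 members were at least 2-fold higher and 1 was at least 2-fold lower on the scale of FPKM + 1, where 13.2% of all genes were called higher and 13.5% lower. The members' median log2 ratio was 1.06 against 0.01 for all genes, and 41 of 45 ratios were above 0. That direction depends on the scale: with every library scaled to the same sum of FPKM, the members' median became -0.18 and that of all genes -1.003, so the members stood above the median gene on both scales and above 0 on the first only. On the same-sum scale 15 of 45 ratios were above 0 and 30 below, 0 members were called higher and 5 lower, and 1.76% of all genes were called higher and 50.1% lower. Among the 7546 genes with 10 FPKM or more in any library, closer to the members' levels, 21% were called higher and 11.5% lower in this comparison, 11.4% and 9.63% in OVA+PM10 against control, and 8.91% and 12.6% in OVA+PM10 against PM10.

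For OVA+PM10 against control, which uses the same control library, 5 of 45 members were called higher and 0 lower, where 9.76% of all genes were called higher and 8.51% lower. The 5 were Psmb1, Psmb4, Psmb5 and Psmb6 of the beta ring and Psmd8 of the lid. The median log2 ratio was 0.62 against -0.001 for all genes and 43 of 45 ratios were above 0, but with the same sum of FPKM in each library the members' median was 0.0019 and that of all genes -0.56. The share of members called, 5 of 45, was near the background. The tally of signs also depended on the scale: with the same sum, 23 of 45 ratios were above 0 and 22 below.

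Between the treated libraries, OVA+PM10 against PM10, 1 of 45 members was called higher (Psme2b) and 2 lower (Psmg3 and Psmg4), where 11.3% of all genes were called higher and 8.62% lower. The median log2 ratio was -0.48 against -0.01 for all genes and 9 of 45 ratios were above 0; scaled to the same sum of FPKM the medians were 0.12 for the members and 0.44 for all genes. The member called higher, Psme2b, shares nearly all of its sequence with Psme2, and both called lower are assembly chaperones. The 3 comparisons share libraries, so each one's values are given side by side below and no relation between them is reported.

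**Figure D2:**
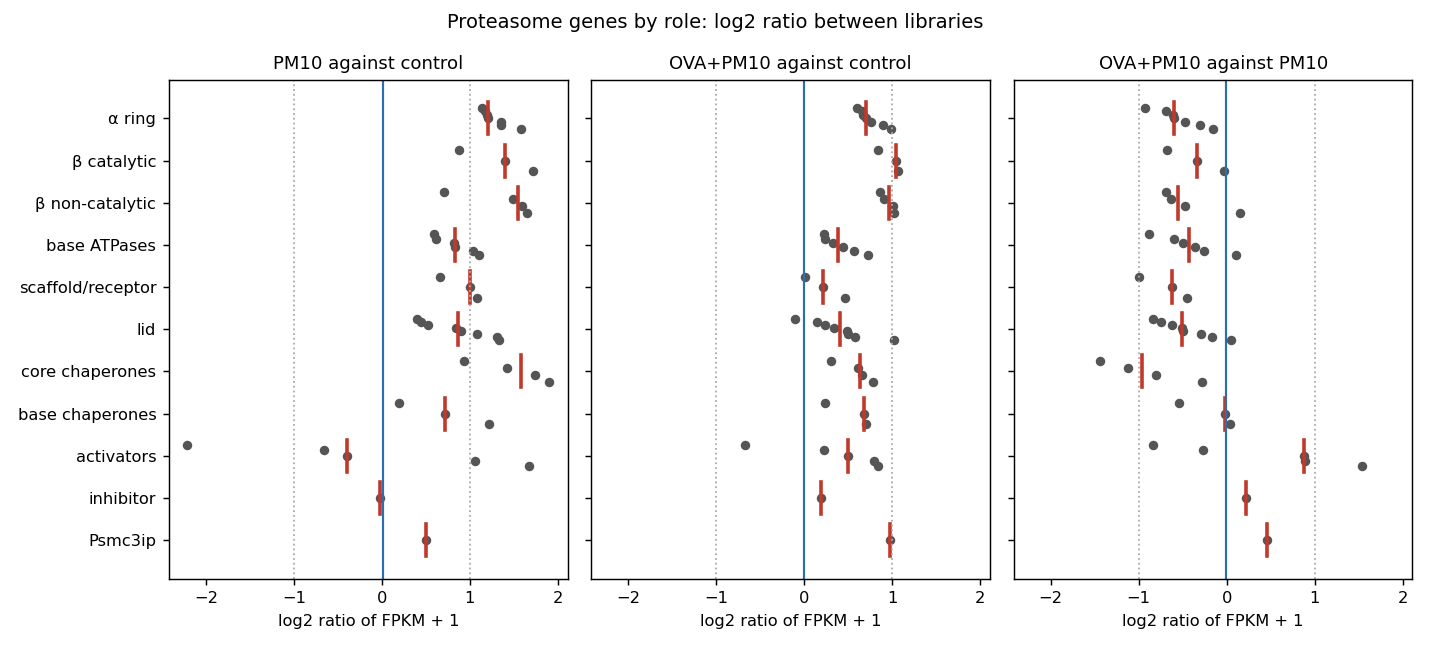
Log2 ratio of FPKM + 1 for each of the 45 members by role, in PM10 against control, OVA+PM10 against control and OVA+PM10 against PM10, with 1 point per gene. Core subunits have a median of 1.36, 0.88 and -0.54 and regulatory particle subunits one of 0.84, 0.33 and -0.50, and with every library scaled to the same sum the core medians are 0.12, 0.24 and 0.05 and the regulatory particle medians -0.37, -0.30 and 0.09.

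The alpha subunits form the gate of the core. All 7 measured ones were called higher in PM10 against control (all genes 13.2%) and 0 of 7 in OVA+PM10 against control (all genes 9.76%). Their median log2 ratios were 1.21 and 0.70. Scaled to the same sum, these medians were -0.02 and 0.06, and with the length trend removed 0.40 and 0.34. As deposited, Psma4 had the highest ratio to control of the ring in PM10, with 80.0 FPKM in control, 242 in PM10 and 127 in OVA+PM10, log2 ratios to control of 1.58 and 0.66. Psma5 had the lowest in PM10 and the highest in OVA+PM10, with 56.4, 125 and 113 FPKM and log2 ratios of 1.14 and 0.99. Between the treated libraries the log2 ratio was -0.15 for Psma5 and -0.93 for Psma4 as deposited, but 0.44 and -0.33 on the same-sum scale. Psma1 had 70.2, 164 and 107 FPKM, log2 ratios of 1.21 and 0.60, the lowest of the ring in OVA+PM10. The other 4, Psma2, Psma3, Psma6 and Psma7, had log2 ratios between 1.17 and 1.36 in PM10 and between 0.67 and 0.90 in OVA+PM10. With the length trend removed, Psma3 (1.32) and Psma2 (1.14) had the highest ratios of the ring in PM10, and Psma4 had 0.74.

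The catalytic subunits of the beta ring are Psmb5, which cuts after hydrophobic residues, Psmb6, which cuts after acidic ones, and Psmb7, which cuts after basic ones. Psmb5 lies on chromosome 14 (54614119 to 54618022, minus strand, mm10), Psmb6 on chromosome 11 (70525367 to 70527858, plus strand) and Psmb7 on chromosome 2 (38588036 to 38644087, minus strand). The promoter windows of Psmb5 and Psmb6 hold the letters TGACNNNGC, the core of the antioxidant response element. The factors Nrf1 (Nfe2l1) and Nrf2 (Nfe2l2) are known to bind that element. Psmb7 had no window to search. The letters were found in 15.8% of members with a window, near the 14.4% of promoters of genes at 1 FPKM or more. The promoters of Psmb5 and Psmb6 are shown from 130 bases before to 20 bases after the RefSeq start site on GRCm38.p6. They lie at chr14:54617976-54618125 (minus strand) for Psmb5 and chr11:70525227-70525376 (plus strand) for Psmb6. Capitals mark the match, which begins 47 bases before the start site in Psmb5 and 9 bases before it in Psmb6.
Psmb5: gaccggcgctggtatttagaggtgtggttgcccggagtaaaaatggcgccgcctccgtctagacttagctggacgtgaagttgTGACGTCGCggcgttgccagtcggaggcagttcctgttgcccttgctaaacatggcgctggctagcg
Psmb6: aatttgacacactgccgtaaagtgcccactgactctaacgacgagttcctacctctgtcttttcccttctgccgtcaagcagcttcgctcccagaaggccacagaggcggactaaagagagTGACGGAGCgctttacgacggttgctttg

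Psmb6 had the largest difference of the catalytic subunits between PM10 and control, with 110 FPKM in control, 365 in PM10 and 228 in OVA+PM10. Its log2 ratios to control were 1.72 and 1.04. Psmb5 had 92.9, 247 and 195 FPKM, and log2 ratios of 1.40 and 1.06. Both genes were called higher than control in both treated libraries on the deposited scale. After scaling to the same sum their log2 ratios were 0.49 and 0.40 for Psmb6 and 0.16 and 0.42 for Psmb5. With the length trend removed they were 0.52 and 0.38 for Psmb6 and 0.27 and 0.48 for Psmb5. The ratios thus stayed above 0, but none of the calls was kept either way. Psmb7 had 146, 269 and 263 FPKM, log2 ratios of 0.88 and 0.84, and was called in neither comparison (-0.36 and 0.20 on the same-sum scale). It had the highest level of the 3 in control and in OVA+PM10 and the middle one in PM10, and its treated libraries differed by a log2 ratio of -0.03. The exons of Psmb7 overlap those of Nek6 on the opposite strand, and Psmb5 holds the microRNA gene Mir686 on its own strand.

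The 4 remaining beta subunits carry no active site and shape the ring. Psmb3 had 170 FPKM in control, 516 in PM10 and 319 in OVA+PM10, with log2 ratios to control of 1.60 and 0.91. Psmb4 had 174, 492 and 354 FPKM and log2 ratios of 1.49 and 1.02. Psmb1 had 147, 464 and 298 FPKM and log2 ratios of 1.65 and 1.01, the highest ratio of the 4 in PM10. These genes had the highest levels of the core in the PM10 library. Psmb2 was set apart from them: its 63.6, 105 and 117 FPKM gave log2 ratios of 0.71 and 0.86, the lowest of the core in PM10 against control, and it was the core gene with a higher value in OVA+PM10 than in PM10 (log2 ratio 0.15). Its ratio in PM10 changed sign with the length trend removed (-0.48) and on the same-sum scale (-0.52). In all, 5 of 7 beta subunits were called higher in PM10 (all genes 13.2%) and 4 of 7 in OVA+PM10 (all genes 9.76%). Their medians of 1.49 and 1.01 became 0.25 and 0.37 on the same-sum scale, and 0.41 and 0.38 with the length trend removed.

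The immunoproteasome subunits are compared here with the constitutive subunits whose place they take, since a ratio inside 1 library does not depend on the scaling between libraries. Psmb8, which replaces Psmb5, had 84.3 FPKM in control, 308 in PM10 and 178 in OVA+PM10. It made up 47.6%, 55.5% and 47.7% of the summed level of the pair. Psmb9, which replaces Psmb6, had 85.0, 174 and 132 FPKM, or 43.6%, 32.3% and 36.7% of its pair. The shares of these pairs thus differed in opposite directions between control and PM10, but the genes of a pair differ in transcript length. With the length trend removed, the log2 ratio of the pair in PM10 relative to control went from 0.46 to 1.11 for Psmb8 over Psmb5 and from -0.70 to -0.23 for Psmb9 over Psmb6. Psmb10, which replaces Psmb7, had 68.3, 189 and 100.2 FPKM, or 31.8%, 41.3% and 27.6% of its pair. Summed over the 3 pairs, the immunoproteasome share was 40.5% in control, 43.2% in PM10 and 37.5% in OVA+PM10. Constitutive messages were thus the larger part of the sum in each library, and Psmb8 in PM10 was the pair in which the inducible message exceeded its counterpart. Exons of Psmb9 overlap those of Tap1 on the opposite strand, and those of Psmb8 an antisense gene.

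**Figure D3:**
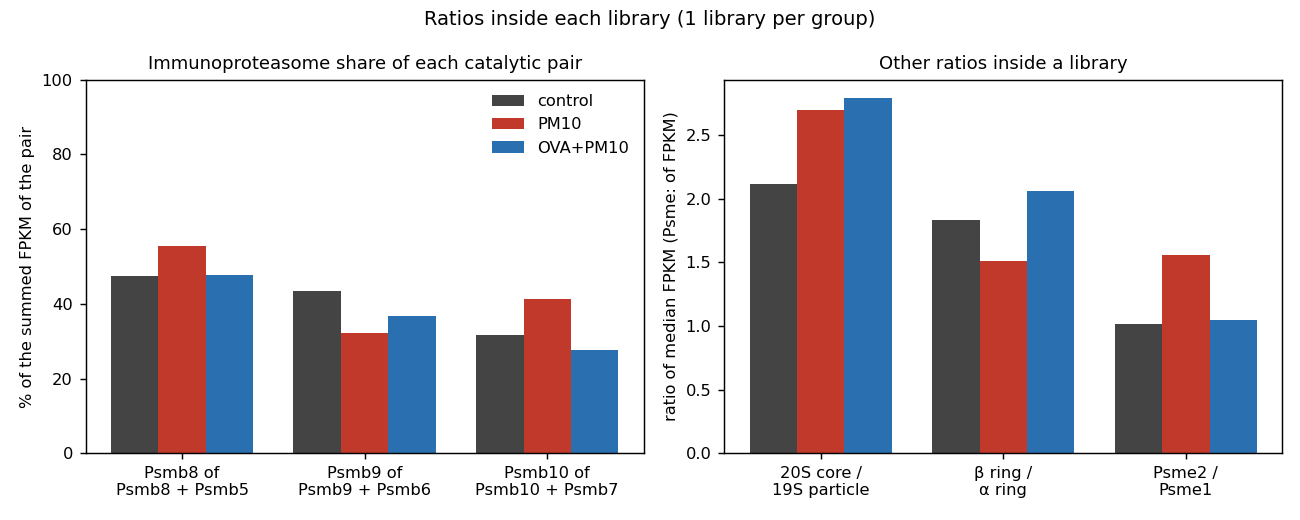
Ratios between proteasome genes, immunoproteasome genes included, inside each library, which scaling between libraries does not change, for the control, PM10 and OVA+PM10 libraries. The share of Psmb8 in its pair with Psmb5 is 47.6, 55.5 and 47.7%, the share of Psmb9 with Psmb6 43.6, 32.3 and 36.7%, and the ratio of Psme2 to Psme1 1.01, 1.55 and 1.05.

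The regulatory particle is built of a base, which holds 6 ATPases, 2 scaffold proteins and a ubiquitin receptor, and a lid of 8 measured subunits that carries the deubiquitinase. Of its 17 genes 7 were called higher in PM10 (all genes 13.2%) and 1 in OVA+PM10 (all genes 9.76%). The medians were 0.84 and 0.33 as deposited, -0.37 and -0.30 on the same-sum scale, and 0.47 and 0.15 with the length trend removed. The promoter of Psmd12, a lid subunit, is shown because CCGGAA, the letters that ETS-family factors are known to bind, was the motif most frequent among these genes and is on the reverse strand here. The window is chr11:107479398-107479547 (plus strand, GRCm38.p6, RefSeq start site), with TTCCGG in capitals from 16 bases before the start site.
Psmd12: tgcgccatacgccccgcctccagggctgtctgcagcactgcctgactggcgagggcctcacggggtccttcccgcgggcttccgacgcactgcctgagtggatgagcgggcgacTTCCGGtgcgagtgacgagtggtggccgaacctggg

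Among the ATPases, which unfold the substrate and open the gate, Psmc1 and Psmc3 were called higher in PM10 and none of the 6 in OVA+PM10, with medians of 0.83 and 0.38 that became -0.40 and -0.26 on the same-sum scale. Psmc1 had 86.7 FPKM in control, 188 in PM10 and 102 in OVA+PM10, log2 ratios to control of 1.11 and 0.23, the highest of the 6 in PM10 and the lowest in OVA+PM10. Psmc4 had 44.6, 68.6 and 74.2 FPKM and log2 ratios of 0.61 and 0.72. Its ratio was the highest of the 6 in OVA+PM10, where that of Psmc1 was the lowest. Psmc6 had 49.9, 76.1 and 59.1 FPKM, log2 ratios of 0.60 and 0.24. Psmc3 (log2 ratio 1.04 in PM10) has exons that overlap Slc39a13 on the opposite strand.

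Of the base proteins without ATPase activity, the scaffold Psmd1 had 36.5 FPKM in control, 74.5 in PM10 and 36.8 in OVA+PM10. Its log2 ratios to control were 1.01 and 0.01, and that between the treated libraries was -0.996. Control and OVA+PM10 were nearly equal for this gene on the deposited scale, while on the same-sum scale its ratios to control were -0.21 in PM10 and -0.62 in OVA+PM10. The other scaffold, Psmd2, had 64.2, 102 and 74.3 FPKM and log2 ratios of 0.66 and 0.21. Psmd4, the ubiquitin receptor, had 80.4, 171 and 111 FPKM and log2 ratios of 1.08 and 0.46. The medians of these 3 genes, 1.01 and 0.21 as deposited, became -0.21 and -0.43 on the same-sum scale. Psmd1 shares exon sequence with Htr2b on the opposite strand and with Gm21972 on its own.

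In the lid 3 of 8 genes were called higher in PM10 (Psmd6, Psmd8 and Psmd13) and 1 in OVA+PM10 (Psmd8), with medians of 0.87 and 0.41 that became -0.35 and -0.22 on the same-sum scale. Psmd13 had 39.4 FPKM in control, 100.4 in PM10 and 55.6 in OVA+PM10, the largest ratios of the lid in PM10 (log2 1.33; 0.49 in OVA+PM10). Psmd8, which joins the lid last, had 53.1, 133 and 109 FPKM and log2 ratios of 1.31 and 1.02. It was the regulatory particle gene called in both comparisons with control. Psmd14, the deubiquitinase that removes the chain, had 32.8, 45.1 and 46.7 FPKM, log2 ratios of 0.45 and 0.50. Its inactive partner Psmd7 had 56.9, 82.0 and 53.0 FPKM, log2 ratios of 0.52 and -0.10. So the 2 proteins that form the deubiquitinating pair were closest in message in OVA+PM10. Psmd3 had 32.5, 43.3 and 38.3 FPKM and log2 ratios of 0.40 and 0.23, the lowest of the lid in PM10. The remaining lid genes Psmd6, Psmd11 and Psmd12 had log2 ratios of 1.08, 0.90 and 0.84 in PM10.

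Core and regulatory particle were compared inside each library as well. The median level of the 14 core genes was 106, 262 and 192 FPKM and that of the 17 regulatory particle genes 49.9, 97.2 and 68.6, a ratio of 2.12 in control, 2.69 in PM10 and 2.80 in OVA+PM10. Levels within the core spanned from 56.4 to 174 FPKM in control (3.09-fold), from 105 to 516 in PM10 (4.92-fold) and from 107 to 354 in OVA+PM10 (3.31-fold), and those of the regulatory particle spanned 3.12, 4.82 and 3.73-fold. The core median log2 ratio exceeded that of the regulatory particle by 0.51 in PM10 and 0.55 in OVA+PM10 against control, and by 0.50 and 0.54 on the same-sum scale. The core transcripts are shorter, at a median of 1162.5 bases against 1636, and with the trend of the ratios over transcript length taken off the differences were -0.07 and 0.22. With lengths taken from the longest annotated transcript they were 0.12 and 0.37, so the gap was smaller with either choice of length, and in PM10 its sign depended on that choice.

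Assembly chaperones do not stay in the finished proteasome, and their medians over 7 genes were 14.4, 38.1 and 22.6 FPKM, below those of core and regulatory particle. In PM10 4 of the 7 were called higher (all genes 13.2%) and in OVA+PM10 0 (all genes 9.76%). The medians were 1.21 and 0.66 as deposited, 0.02 and 0.05 on the same-sum scale, and 0.55 and 0.20 with the length trend removed. Psmg4, which with Psmg3 helps the alpha ring to form, had 29.0 FPKM in control, 111 in PM10 and 50.4 in OVA+PM10. Its log2 ratio of 1.91 in PM10 against control was the highest of all 45 members as deposited (0.78 in OVA+PM10). At 555 bases its transcript is the shortest of the members. With the length trend removed its ratio in PM10 was 0.55, and that of Psma3 was the highest at 1.32. Psmg3, the partner of Psmg4, had 10.7, 38.1 and 13.4 FPKM, log2 ratios of 1.74 and 0.30 (0.61 in PM10 with the length trend removed). Both were called lower in OVA+PM10 against PM10, at log2 ratios of -1.44 for Psmg3 and -1.13 for Psmg4, and no other member was on the deposited scale. These calls were lost with the length trend removed (-0.93 and -0.50, where Psmd1 at -1.04 was the member called lower instead) and on the same-sum scale (-0.87 and -0.54). The values of Psmg3 rest on about 187, 440 and 179 reads, and its exons share sequence with Gm26938 on the same strand. The other pair, which dimerises to start the ring, had log2 ratios in PM10 of 1.42 for Psmg1 and 0.93 for Psmg2, whose levels were 11.9, 23.7 and 19.3 FPKM.

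Chaperones of the base had a lower median log2 ratio than the 4 Psmg chaperones in PM10 against control as deposited (0.72 against 1.58). In OVA+PM10 against control the medians were close, at 0.67 and 0.64. With the length trend removed the base chaperones stood higher, at 0.61 against 0.51 in PM10 and 0.40 against 0.08 in OVA+PM10. Psmd10, the oncoprotein gankyrin that holds an ATPase during assembly, had 16.2 FPKM in control, 39 in PM10 and 26.5 in OVA+PM10 and was called higher in PM10 (log2 1.21; 0.67 in OVA+PM10). Psmd9 had 7.78, 13.5 and 13.3 FPKM and log2 ratios of 0.72 and 0.71, on about 400, 458 and 524 reads. Psmd5 had 22.0, 25.3 and 26 FPKM and log2 ratios of 0.19 and 0.23. Its ratio in PM10 was among the smallest of all members, and its transcript of 4397 bases is among the longest.

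The activators are caps that open the gate without ubiquitin. Psme1 and Psme2 form a cytosolic ring known for its induction by interferon gamma, Psme3 forms a ring in the nucleus, and Psme4 is a single large nuclear protein. Psme1 and Psme2 are close neighbours on chromosome 14, at 55578123 to 55581529 (plus strand) and 55587441 to 55591113 (minus strand). The promoter of Psme1 is shown because it holds GAAA repeated after a gap of 2 bases, the letters of an interferon-stimulated response element, on the reverse strand. The promoter windows of Psme2 held no such match. The Psme1 window shown is chr14:55578364-55578513 (plus strand, GRCm38.p6, RefSeq start site), with the match in capitals from 9 bases after the start site.
Psme1: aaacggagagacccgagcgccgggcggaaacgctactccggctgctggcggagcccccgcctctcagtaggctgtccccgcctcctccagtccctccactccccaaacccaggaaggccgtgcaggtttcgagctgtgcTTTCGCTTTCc

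Psme1 had 164 FPKM in control, 343 in PM10 and 285 in OVA+PM10, log2 ratios to control of 1.06 and 0.79. Psme2 had 166, 533 and 298 FPKM, log2 ratios of 1.67 and 0.84. Both were called higher in PM10, but on the same-sum scale the ratio of Psme1 in PM10 was -0.18 and that of Psme2 0.44. Within the libraries the ratio of Psme2 to Psme1 was 1.01 in control, 1.55 in PM10 and 1.05 in OVA+PM10. The messages of the ring's partners were thus nearly equal in 2 libraries and unequal in PM10. Relative to control, Psme2 over Psme1 differed by a log2 ratio of 0.61 in PM10, and by 0.49 with the length trend removed. The division of reads between Psme2 and Psme2b, given below, also enters the level of Psme2. Exons of Psme1 overlap those of Emc9 on the opposite strand by 14 bases.

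The nuclear activators had lower values in PM10 than in control. Psme3 had 28.7 FPKM in control, 17.9 in PM10 and 33.8 in OVA+PM10, log2 ratios to control of -0.65 and 0.23 (-1.85 and -0.40 on the same-sum scale). Psme4 had 12.5, 9.27 and 18 FPKM, log2 ratios of -0.39 and 0.49 (-1.53 and -0.12 on the same-sum scale). On the deposited scale neither passed 2-fold in any comparison, and with Psme2b and Psmf1 they were the members below control in PM10. On the same-sum scale both were more than 2-fold below control in PM10, and OVA+PM10 stood above PM10 by 1.44 and 1.42. Set inside each library, Psme1 stood at 5.70, 19.2 and 8.43 times Psme3, and Psme2 at 13.3, 57.5 and 16.6 times Psme4. The excess of the cytosolic over the nuclear activators was thus largest in PM10 on the deposited values. Relative to control, and on the log2 scale, Psme1 over Psme3 differed by 1.71 in PM10 and 0.57 in OVA+PM10, and by 0.86 and 0.13 with the length trend removed. Psme2 over Psme4 differed by 2.07 and 0.34, and by 0.35 and -0.50 with the trend removed, so the place of OVA+PM10 turned with the length trend. With 6491 bases Psme4 has the longest transcript of the members, and taking off the length trend moved its ratio in PM10 to 0.29, while that of Psme3 (2664 bases) stayed at -0.70.

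Psme2b, a single-exon relative of Psme2 on chromosome 11 (48945354 to 48946190, minus strand), had 8.37 FPKM in control, 1.02 in PM10 and 4.88 in OVA+PM10. Its log2 ratios to control were -2.21 in PM10 and -0.67 in OVA+PM10, and the ratio of OVA+PM10 to PM10 was 1.54. It was the member called lower in PM10, and its values run against those of Psme2. The transcripts of Psme2 and Psme2b are identical at 99.4% of 794 aligned bases, with 5 mismatches, so the division of reads between them is uncertain and rests on about 139, 11 and 62 reads for Psme2b. Psme2b made up 4.79%, 0.191% and 1.61% of the pair's summed level as the authors' values divide it; another division of the reads was not tested.

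Psmf1, an inhibitor of the core in the test tube that also takes part in assembly and transport, had 7.76, 7.61 and 8.99 FPKM, log2 ratios to control of -0.02 and 0.19. Of all members its ratio in PM10 was the closest to 0 on the deposited scale. After scaling to the same sum its ratios were -1.13 and -0.40, and with the length trend removed 0.11 and 0.30. Psmc3ip, which the pattern of names took and which is no proteasome protein, had 5.53, 8.28 and 11.8 FPKM and log2 ratios of 0.51 and 0.97. It was the member of lowest level in control, with an order of libraries unlike most of the set, and its exons overlap those of Mlx on the opposite strand. Leaving it out changed the members' median ratio in PM10 from 1.06 to 1.07.

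Transcript length moved with these ratios over the whole table. Across 13637 genes Spearman's rho between the length and the log2 ratio was -0.51 for the PM10 library over control, -0.37 for OVA+PM10 over control and 0.27 for OVA+PM10 over PM10, and across the 45 members it was -0.52, -0.52 and 0.21, where genes are not independent replicates. Short transcripts thus had higher ratios to control among the members as among all genes. Within classes of length, the members, without a further floor, were set beside all genes of the class with 10 FPKM or more. The members' median exceeded that of the class in all 5 classes in PM10 against control: 1.60 against 1.43 below 1000 bases, 1.08 against 0.93 from 1000 to 1500, 1.04 against 0.55 from 1500 to 2000, 0.69 against 0.25 from 2000 to 3000, and 0.08 against -0.25 from 3000 to 7000 bases. Below 1000 bases 5 of 9 members were above the class median in this comparison. In OVA+PM10 against control the members were above the class as well, by medians of 0.86 against 0.77, 0.67 against 0.47, 0.49 against 0.26, 0.24 against 0.09 and 0.21 against -0.23. With the running median over length taken off, 40 of 45 members lay above the trend in each of these comparisons, by medians of 0.45 and 0.25, and 14 of 45 in OVA+PM10 against PM10, with a median of -0.21.

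**Figure D4:**
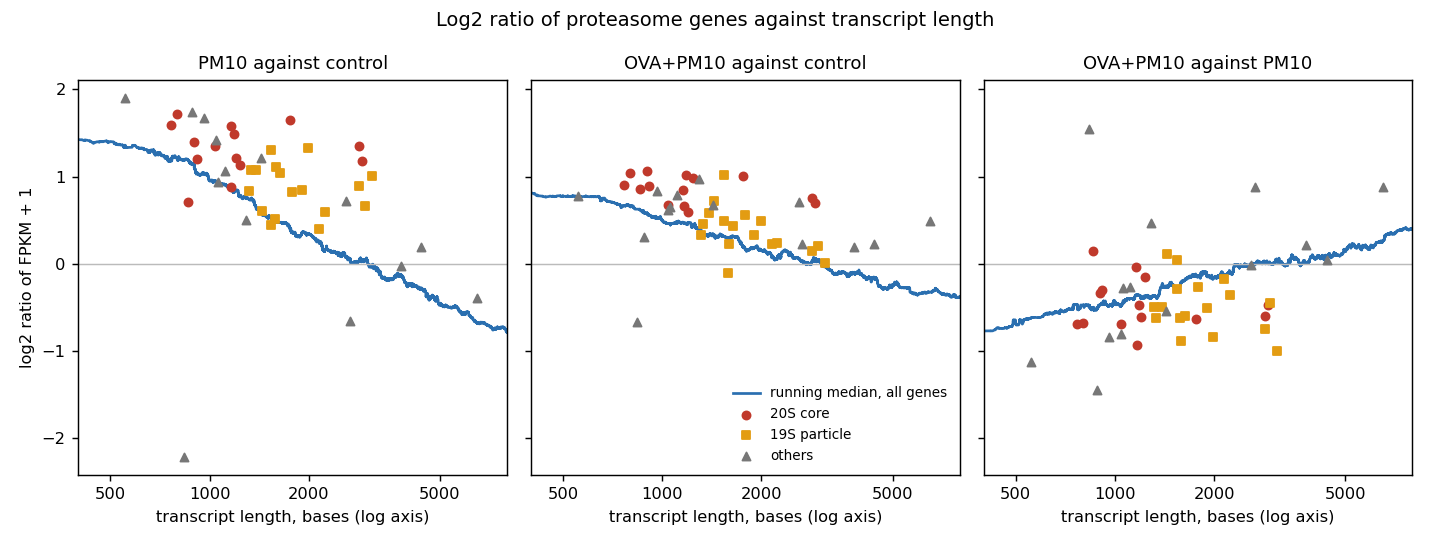
Log2 ratio of FPKM + 1 against transcript length (bases, log axis) in PM10 against control, OVA+PM10 against control and OVA+PM10 against PM10. The line is the running median of all genes over length. All points are the 45 members, marked as core, regulatory particle or others. In each comparison with control 40 of 45 members lie above the line, by a median of 0.45 in PM10 and 0.25 in OVA+PM10. Under the same-sum scaling the median of all genes in these comparisons moves to -1.003 and -0.56 and that of the members to -0.18 and 0.0019.

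Among genes of 10 FPKM or more with a length in the middle 50% of the members' range (1059 to 2148 bases, 2202 genes), 28.9% were called higher and 6.04% lower in PM10 against control. The shares were 13.5% and 5.95% in OVA+PM10 against control and 6.99% and 14.7% in OVA+PM10 against PM10. The members' 25 of 45 was above the first share, and the 5 of 45 near the second. With the trend removed, 4 and 0 of the 45 members were 2-fold above it, where 6.23% and 7.01% of all genes were, so the first share was near the background. The distance of the members from other genes of their length was thus smaller than the ratios themselves show and of 1 sign in most members.

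A search of promoter windows added what the names do not give. The RefSeq table on GRCm38.p6 held a window from 250 bases before to 50 after the start for 38 of 45 members, and for none of Psmb1, Psmb2, Psmb7, Psmc3, Psmd3, Psmd7 and Psmg2. The motifs below were searched on both strands, and they can overlap one another. CCGGAA was found in 21 of 38 members (55.3%), against 14.9% of 32851 promoters and 24.8% of 13578 promoters of genes at 1 FPKM or more. It was in 10 of 14 regulatory particle genes and 4 of 11 core genes with a window. The doubled GAAA was found in 5 of 38 (13.2%, against 3.44% and 3.12%), namely Psmb3, Psmd4, Psmd9, Psme1 and Psmg4. TGACNNNGC was found in 6 of 38 (15.8%, against 12.4% and 14.4%), namely Psmb5, Psmb6, Psmc6, Psmd12, Psmd9 and Psme4, a share near that of all promoters. CCAAT was found in 13 of 38 (34.2%, against 37.4% and 36.8%), with 6 of 11 core and 4 of 14 regulatory particle genes. A match is a string of letters in a window and no measured site.

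The counts for the lists that follow are on the deposited scale. There 13.2% of all genes were called higher and 13.5% lower in PM10 against control. The shares were 9.76% and 8.51% in OVA+PM10 against control and 11.3% and 8.62% in OVA+PM10 against PM10. Of 14 listed partners outside the name rule 11 were measured, and 4 were called higher and 1 lower in PM10, 0 in either direction in OVA+PM10 against control, and 1 higher and 2 lower in OVA+PM10 against PM10. Shfm1 (Sem1), the small subunit that ties lid and base together, had 294 FPKM in control, 1348 in PM10 and 568 in OVA+PM10, log2 ratios to control of 2.19 and 0.95. Pomp, the chaperone of beta ring maturation, had 160, 575 and 219 FPKM and log2 ratios of 1.84 and 0.45. As for Psmg3 and Psmg4, OVA+PM10 was more than 2-fold below PM10 for both on the deposited scale, at log2 ratios of -1.25 and -1.39. With the length trend removed Pomp stayed at -1.15, unlike Psmg3 and Psmg4, and Shfm1 had no transcript length. The same-sum scaling shifts abundant genes by about 0.60 in this comparison. Ubr4, a large ubiquitin ligase that binds the proteasome, had 9.47, 3.29 and 7.91 FPKM, a log2 ratio of -1.29 in PM10. Uchl5, a deubiquitinase of the base, had 13.7, 30.1 and 20.6 FPKM (log2 ratio 1.08 in PM10). With the length trend removed the ratios in PM10 were -0.27 for Ubr4, whose transcript has 15928 bases, and 0.62 for Uchl5, and neither passed 2-fold.

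The factors that control transcription of proteasome genes were mostly within 2-fold. Of 13 measured, 0 were called higher and 1 lower in PM10, 0 and 2 in OVA+PM10 against control, and 1 and 1 in OVA+PM10 against PM10. Nfe2l1, the factor known to raise subunit genes when the proteasome is inhibited, had 56.4 FPKM in control, 44.9 in PM10 and 26.5 in OVA+PM10, log2 ratios to control of -0.32 and -1.06. Ddi2, the protease that cuts and so activates the protein of Nfe2l1, had 15.3, 2.83 and 11.5 FPKM, log2 ratios of -2.09 and -0.39. With the length trend removed the ratio of Nfe2l1 in PM10 was 0.06. A link between these messages and those of the subunits was not tested. Mafk, a small partner of these factors, had 28.2, 17.8 and 13.4 FPKM, a log2 ratio of -1.02 in OVA+PM10. Akirin2, which brings proteasomes into the nucleus, had 28.2, 52.8 and 22.5 FPKM, log2 ratios of 0.88 and -0.31 to control and -1.19 between the treated libraries. With the length trend removed, Ddi2 in PM10 kept its call (-1.23), while Nfe2l1 (-0.78) and Mafk (-0.99) in OVA+PM10 and Akirin2 between the treated libraries (-0.96) lost theirs.

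Upstream of the proteasome, ubiquitin is activated by Uba1, the main activating enzyme, or by Uba6. Uba1 had 57.0 FPKM in control, 19.4 in PM10 and 71.3 in OVA+PM10, a log2 ratio of -1.51 in PM10 against control and 1.83 between the treated libraries. Uba6 had 5.00, 0.919 and 4.95 FPKM, a log2 ratio of -1.64 in PM10. Both enzymes were lower in PM10 than in the other libraries on the deposited scale, and with the length trend removed their ratios in PM10 were -1.26 and -0.96. Of the 18 measured genes of 21 that deliver substrates, 1 was called higher in PM10 (Ubxn1, 114, 249 and 137 FPKM), 0 in OVA+PM10 against control, and 1 lower between the treated libraries (Ubl4a, log2 ratio -1.001); with the length trend removed their ratios were 0.36 and -0.98, and neither was called. Vcp, the segregase that extracts ubiquitinated proteins, had 115, 171 and 157 FPKM.

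Since Psme1, Psme2 and the immunoproteasome genes are known targets of interferon gamma, 18 other genes of that response were set beside them. Of these, 0 were called higher and 7 lower in PM10 against control (all genes 13.2% and 13.5%), with a median log2 ratio of -0.76. In OVA+PM10 against control 0 were called higher and 3 lower (all genes 9.76% and 8.51%), with a median of -0.42. Between the treated libraries 3 were called higher and 0 lower (all genes 11.3% and 8.62%), with a median of 0.29. Cxcl9 had 6.79 FPKM in control, 1.06 in PM10 and 5.39 in OVA+PM10, Cxcl10 had 6.14, 0.991 and 8.82, and Iigp1, an interferon-inducible GTPase, had 52.0, 13.9 and 23.0. As deposited, 4 of the 18 ratios in PM10 against control were above 0 and 14 below, from -1.92 for Cxcl9 to 0.44 for Irf1. Psme1 was above control in PM10 as deposited and below it on the same-sum scale (-0.18). A part of interferon gamma in these values was not tested. The median transcript of the list is 2925.5 bases, longer than that of the members, and with the length trend removed the list's medians were -0.53 and -0.36.

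Other large complexes place the members' ratios. In PM10 against control the median log2 ratio was 2.14 for 79 cytosolic ribosomal proteins, 1.2 for 77 mitochondrial ribosomal proteins, 1.52 for 80 nuclear genes of oxidative phosphorylation, 0.77 for the 8 genes of the chaperonin TRiC and 0.51 for 9 genes of the COP9 signalosome, a complex related in build to the lid. With the length trend removed these became 1.17, 0.37, 0.42, 0.57 and 0.16, beside 0.45 for the proteasome members. The members were thus within the range of the other complexes other than the cytosolic ribosome, which stood above them. In OVA+PM10 against control the medians with the trend removed were 0.71, 0.20, 0.22, 0.28 and 0.10, beside 0.25 for the members. In OVA+PM10 against PM10 they were -0.49, -0.31, -0.21, -0.38 and -0.20, beside -0.21 for the members. The same-sum scaling shifts the ratios of abundant genes alike, by about -1.24, -0.65 and 0.60 in the 3 comparisons.

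**Figure D5:**
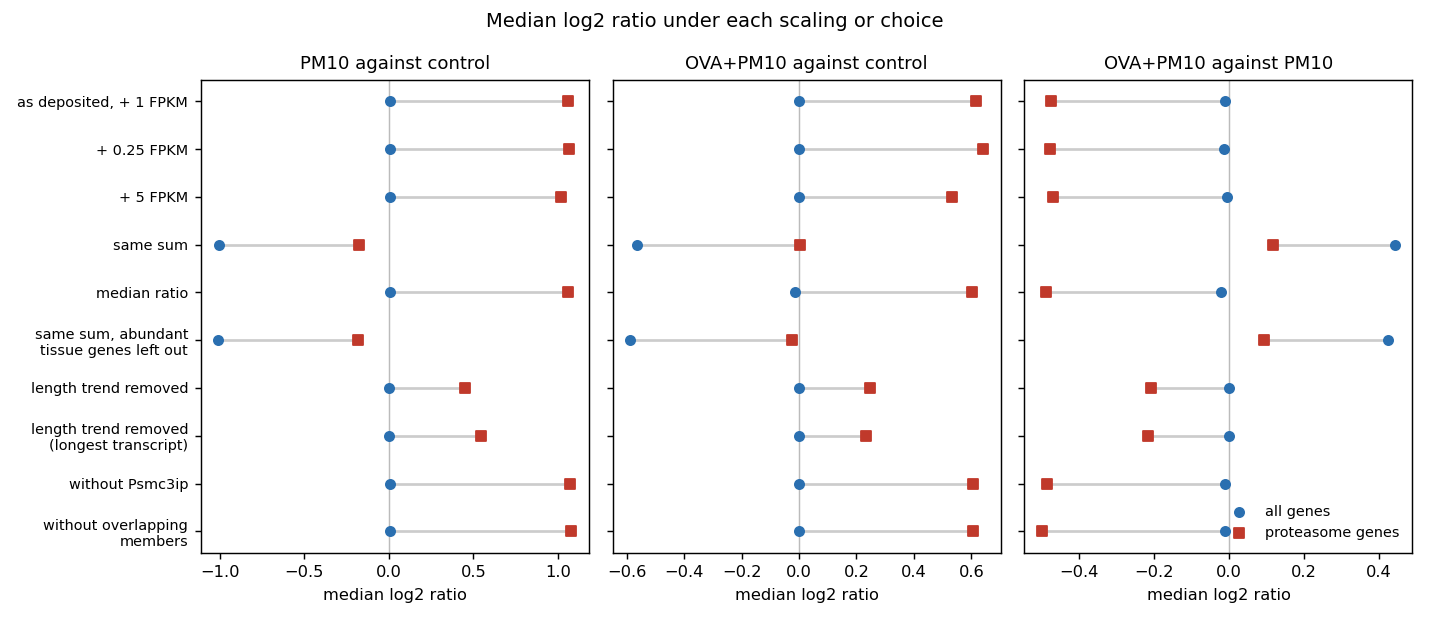
Median log2 ratio of the 45 members and of all genes in each of the 3 comparisons under each way of scaling and filtering. The members' median in PM10 against control is 1.06 as deposited, 0.45 with the length trend removed and -0.18 with the same sum of FPKM in each library, where that of all genes is -1.003, so the sign depends on the scale.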

How the data were processed

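RNA of mouse lung (1.3 µg per library, Trizol, a directional NEBNext kit, per the labels' protocols) was sequenced in 3 libraries, 1 per group. Reads were mapped with TopHat to mm10, per the submitters' processing notes; the sources used here do not give the quantifier, strand setting or annotation. The authors deposited 1 FPKM value per gene symbol, normalized for transcript length and depth. No header names that unit, which was taken from the size of the steps between low values, which shrink with transcript length. Depth was estimated from that step.

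Ratios were computed here as log2 of (FPKM + 1) over (FPKM + 1), for genes with 1 FPKM or more in any library, and called at 2-fold. Lengths came from the principal transcripts of GENCODE M21 (95.5% of symbols, all 45 members). The length trend is a running median over 501 genes. The calculation was tested on simulated data. Alternatives were another pseudocount, filter, fold threshold and scaling, removal of the trend, and, chosen after seeing the data, the longest transcript and leaving out Psmc3ip or overlapping members. Tools were Python 3.11.15, numpy 2.4.6, pandas 2.3.3, scipy 1.17.1 and matplotlib 3.10.9.

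Values in all libraries are given for the catalytic subunits, activators, inhibitor, members 2-fold lower, and the highest and lowest ratio of each role, and for up to 4 genes of each pathway list. Members and lists were chosen with earlier results of these data known. Counts for the list of ubiquitin genes are not reported here.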

Additional observations from a re-analysis of the deposited data

How the results depend on the processing

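No paired analysis was possible because each group has 1 library. The members' median log2 ratio in PM10 against control, 1.06, was 0.45 with the length trend removed, -0.18 with the same sum of FPKM in each library and -0.18 with hemoglobin, immunoglobulin, muscle and squamous genes left out before that scaling. In OVA+PM10 against control, 0.62 became 0.0019 and -0.025 under these same-sum scalings, and between the treated libraries -0.48 became 0.12 and 0.094. The 25 members called higher in PM10 became 0 under both same-sum scalings, 4 with the length trend removed (5 with the longest transcript) and 0 at 4-fold. The 1 called lower became 5 under both same-sum scalings (where 50.1% and 50.3% of all genes were called lower), 0 without members whose exons overlap another gene and 2 at 1.5-fold. In OVA+PM10 against control the 5 called higher became 3 with 5 FPKM added, 0 under both same-sum scalings and with either length trend removed, 0 at 4-fold and 24 at 1.5-fold; the 0 called lower became 1 under both same-sum scalings, with either trend removed and at 1.5-fold. Between the treated libraries the 1 called higher became 0 with 5 FPKM added, 3 under both same-sum scalings, 0 without overlapping members, 0 at 4-fold and 3 at 1.5-fold. The 2 called lower became 0 under both same-sum scalings, 1 with either trend removed (with the principal transcript Psmd1, which was not one of the 2), 1 without overlapping members, 0 at 4-fold and 18 at 1.5-fold. Members called in PM10 whose ratio changed sign were, under the same-sum scaling and without tissue genes, Psma1 (-0.020 and -0.024), Psma2 (-0.061 and -0.065), Psma5 (-0.090 and -0.094), Psma7 (-0.038 and -0.042), Psmc1 (-0.12 and -0.13), Psmc3 (-0.20 and -0.20), Psmd1 (-0.21 and -0.22), Psmd4 (-0.15 and -0.16), Psmd6 (-0.15 and -0.15) and Psme1 (-0.18 and -0.18). The same-sum shift is -1.24, -0.65 and 0.60 on the log2 scale before 1 FPKM is added, and smaller for genes of low level; which scale holds was not tested. The remaining ratios were counted once per member and per setting of pseudocount, scaling or length trend. Of these, 182, 218 and 282 in the 3 comparisons moved by less than 1.5-fold and 113, 97 and 33 by more. Either group can include changes of sign among members not called. Psma2 between the treated libraries, for example, went from -0.475 to 0.094 under the same-sum scaling without tissue genes. Depth limits Psme2b most, at about 11 reads in PM10.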
